A study of Drosophila melanogaster with 40 samples.

Results

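The cytochrome P450 genes of Drosophila melanogaster were followed through all 40 libraries of a study of flies that express cat MYBPC3 in the heart. They were taken as every row of the deposited count table whose gene name begins with Cyp and a digit, which gave 86 of 17490 genes. The rule used no measured value. It also took Cyp1, which encodes a cyclophilin (a peptidyl-prolyl isomerase) and is no P450, so 85 rows remained as P450 genes, with Cyp6t2Psi, Cyp6a15Psi and Cyp9f3Psi named as pseudogenes among them. The annotation used here lists the identifier of Cyp9f3Psi as Cyp9f3, a protein-coding gene. The largest families were Cyp6 with 25 genes, Cyp4 with 22, Cyp12 with 7, and Cyp9 and Cyp313 with 6 each. Chromosome arm 2R held 35 of the 86 genes (40.7%), where it held 20.6% of all genes in the table, and arm 3L held 6.

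The libraries came from whole larvae of the third instar and from whole adults of 1 week, in pools of 10, and females and males were pooled separately, with or without exercise, a climbing task on a shaker for 1 h. This gave 5 conditions, larvae and the exercised and nonexercised adults of each sex. In each condition 4 lines were measured with 2 replicates, the transgenic lines WT, A31P and R820W and the control line attP2. All flies were w1118/y,w with Chr2/+ and carried 1 copy of TinCΔ4-Gal4, a driver active in the heart. Opposite the driver, the transgenic lines carried UAS-WT-MYBPC3, UAS-A31P-MYBPC3 or UAS-R820W-MYBPC3, the normal or mutated cat gene inserted at the attP2 site, and the control flies carried that site without a transgene. Each allele was represented by a single line, and RNA was taken from the whole body, in which the heart is a small organ. The labels do not say that the 2 replicates of a group came from separate cultures, so the p-values below measure the spread between these pools.

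P450 enzymes are haem proteins that insert an oxygen atom into fats, hormones and foreign compounds. Most sit in the endoplasmic reticulum and draw electrons from NADPH-cytochrome P450 reductase (Cpr), while those of the Cyp12 family and a few others are mitochondrial and use adrenodoxin and its reductase. In flies, Cyp4g1 of the oenocytes carries out the last step of cuticular hydrocarbon synthesis, Cyp18a1 inactivates the moulting hormone 20-hydroxyecdysone, and many Cyp6, Cyp9, Cyp12 and Cyp28 enzymes of the midgut, Malpighian tubules and fat body take part in the breakdown of insecticides and plant toxins. The P450s that make ecdysone carry other names (phm, dib, sad, shd, spo and spok) and are given below as partners.

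Libraries held between 18493813 and 26917796 counted reads, and levels are given as CPM, a gene's counts scaled to the same library total. A count of 3 or fewer was treated as a floor and corresponded to between 0.111 and 0.162 CPM. Larvae and nonexercised flies shared 1 flow cell, whereas exercised females and exercised males were each sequenced in a lane of their own on another, so exercise and flow cell cannot be told apart. Some libraries stood apart. Summed CPM of 14 yolk and eggshell genes reached 6184 in A31P replicate 2 and 478.5 in R820W replicate 2 of the exercised males, 55.8% and 4.32% of the exercised female mean, while the other 6 exercised male libraries held at most 17.2. In attP2 larvae, replicate 2 had 10 Cyp genes at least 2-fold above every other larval library, compared with 329 of the 13241 genes with at least 10 counts in a larval library. In nonexercised males, attP2 replicate 1 held 120.2 CPM of the yolk and eggshell genes, where the other 7 libraries held at most 13.85, and it had Cyp4e3 and Cyp6a19 at least 2-fold above each of them (0.533% of 14067 genes). Some of the results that rest on these libraries are given with and without them.

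Cyp4g1 dominated the P450 RNA of adults and was a minor part of it in larvae. The CPM of the 85 P450 genes summed to a median of 1845 in larvae (lowest 1517, highest 2229, n = 8 libraries in this and each other condition). The median sum was 4555 in exercised females (3415 to 5647) and 6964 in nonexercised ones (5607 to 7637), and it was 23930 in exercised males (22540 to 26390) and 18740 in nonexercised ones (17200 to 20140). The sums did not overlap between larvae and adults or between the sexes. Cyp4g1 alone took a median of 83.4% of this sum in exercised males, 82.1% in nonexercised males, 72.2% in nonexercised females, 63.9% in exercised females and 4.1% in larvae. Without Cyp4g1 the other P450 genes summed to medians of 1763 in larvae, 1636 and 1929 in exercised and nonexercised females, and 4031 and 3289 in exercised and nonexercised males. These levels follow the scaling. With effective library sizes (TMM) the mean sum of all 86 genes was 3181 CPM in larvae and 19810 CPM in exercised males, against 2324 and 24810 CPM on total counts. Without Cyp4g1 the TMM medians were 2247 in larvae, 1642 and 1711 in exercised and nonexercised females, and 3195 and 3236 in exercised and nonexercised males, so that larvae then stood above nonexercised females, and exercised males just below nonexercised ones. The medians of these genes were higher in males than in females and larvae under each of the 4 library sizes tried.

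**Figure D1:**
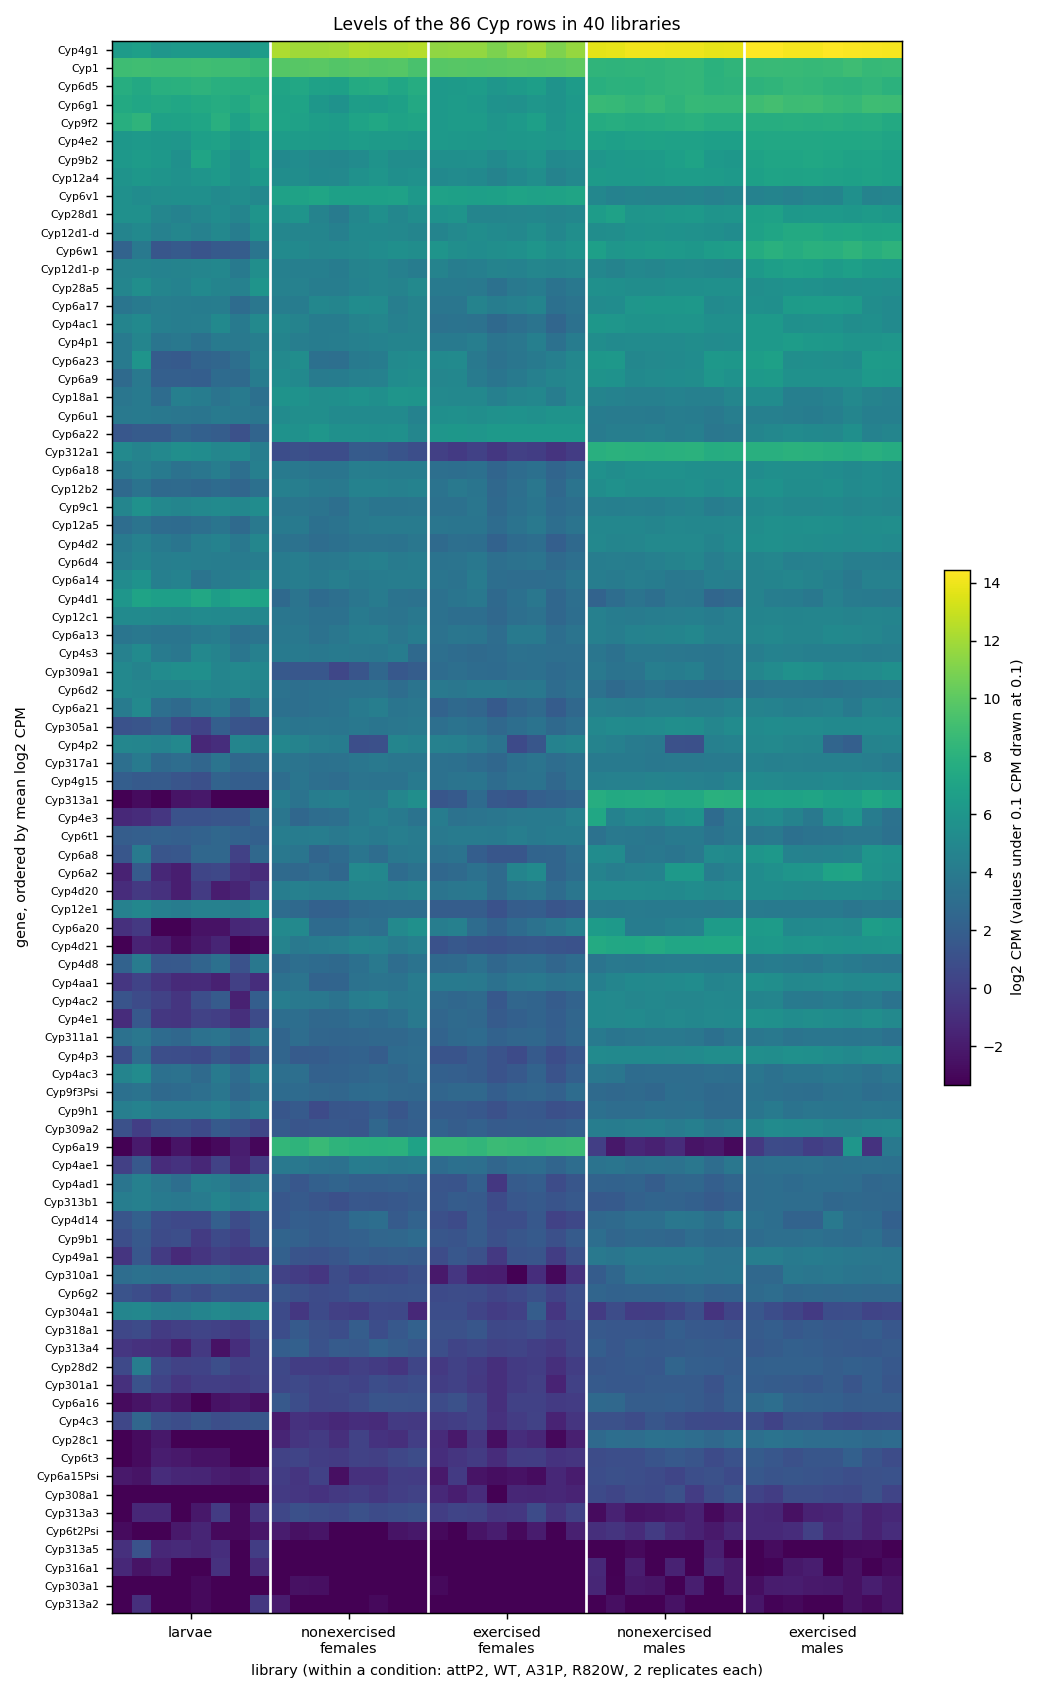
Levels of the 86 Cyp genes (rows, ordered by mean level) in the 40 libraries (columns, grouped by condition, with 2 replicates of attP2, WT, A31P and R820W in each), as log2 CPM on a colour scale. Cyp4g1 is the brightest row in all adult libraries, Cyp6a19 is bright in females alone apart from the exercised male libraries A31P replicate 2 and R820W replicate 2, and Cyp4p2 is dark in the A31P columns of each condition.

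Most Cyp genes were measured in every condition. A median of at least 1 CPM was reached by 80 of the 86 genes in exercised males, 79 in nonexercised males, 76 in nonexercised females, 72 in exercised females and 63 in larvae, and a median of at least 100 CPM by 12, 9, 7, 4 and 5 of them. Cyp303a1, which is needed for sensory bristles, and Cyp308a1 lay at the floor in all 8 larval libraries, and Cyp316a1 and Cyp313a5 in all female libraries. The highest median fell in exercised males for 49 genes, in nonexercised males for 15, in larvae for 12 and in each female condition for 5. Per length of transcript, the 5 highest genes of larvae were Cyp1 (median 369.4 RPKM, the authors' value per length and library size), Cyp6d5 (131.8), Cyp9f2 (94.5), Cyp6g1 (77.1) and Cyp4d1 (46.9). In nonexercised females they were Cyp4g1 (2046 RPKM), Cyp1 (668.8), Cyp6a19 (137.3), Cyp6d5 (88.8) and Cyp9f2 (66.5), and the same 5 led in exercised females in the same order. In nonexercised males Cyp4g1 (6220 RPKM) was followed by Cyp1 (234.4), Cyp6g1 (165.1), Cyp6d5 (154.8) and Cyp9f2 (107.8), and that order held in exercised males. Cyp6d5, Cyp9f2 and Cyp6g1, the last of which is overexpressed in DDT resistant strains, were thus among the most abundant P450 RNAs of both larvae and adult males.

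Larvae and adults were compared first, each with the nonexercised flies of 1 sex. The labels and methods give no sex for the larval pools, and the part of sex in these comparisons was not tested. Differences are Log2FC, the log2 fold change of edgeR after TMM scaling, averaged over the 4 lines, and a gene was called significantly differentially expressed at an adjusted p under 0.05 (quasi-likelihood test, Benjamini-Hochberg over all genes tested) with an absolute Log2FC over 0.5. Of the 86 genes, 84 were tested, since Cyp303a1 and Cyp316a1 had too few counts. Against nonexercised females, 68 Cyp genes were called, 35 higher and 33 lower in larvae, where 72.3% of all genes tested were called, 39.7% higher and 32.7% lower. Against nonexercised males, 62 were called, 19 higher and 43 lower in larvae, where the shares of all genes were 73.7%, 34.2% and 39.5%. The median Log2FC of the 84 genes was 0.07 against females (0.09 over all genes) and -0.69 against males (-0.06 over all genes). In CPM, 13 genes lay higher and 29 lower in all 8 larval libraries than in all 8 of nonexercised females (25.6% and 39.4% of all genes), and 12 higher and 41 lower than in nonexercised males (17.7% and 41% of all genes). The 2 comparisons share the larval libraries. TMM scaling set Log2FC higher than the ratio of CPM by 0.56 against females and by 0.47 against males.

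Cyp4g1 had the largest absolute amount of RNA that differed between stages. It measured 13790 to 16930 CPM in nonexercised males (median 15430), 3850 to 5710 CPM in nonexercised females (median 4993) and 52.9 to 105.2 CPM in larvae (median 77.4). No larval library came within the range of any adult library. The Log2FC of Cyp4g1 in larvae was -5.36 ± 0.14 (SE) against females and -7.14 ± 0.15 against males. Beside it, 3 other genes of fatty acid synthesis, taken from a list of oenocyte genes, were in the table. Their summed CPM had a median of 214.7 in larvae and, without exercise, of 1700 in females and 2711 in males, with no overlap. Whole bodies do not show whether these genes were expressed in oenocytes alone. Of the 2 of them that were tested, 1 was called higher and 1 lower in larvae against females (39.7% and 32.7% of all genes). Both were called lower against males (39.5% of all genes). Their part in the level of Cyp4g1 was not tested. In whole bodies, fewer cells of a type and less RNA per cell cannot be told apart, here and in the results below. Cyp4g15, its relative in the nervous system, also fell on the side of adults, with a Log2FC in larvae of -1.09 ± 0.14 against females and -2.25 ± 0.14 against males.

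Further genes were close to absent in larvae. Cyp6a19 reached at most 0.267 CPM in larvae and 122.4 to 413.4 CPM in nonexercised females. Cyp313a1 measured 0 to 0.223 CPM in larvae and, without exercise, 11.1 to 44.3 CPM in females and 166.2 to 250.2 CPM in males. Cyp4d21, the sex-specific enzyme 1 of the fat body of the head, measured 0.0445 to 0.362 CPM in larvae and, without exercise, 14.9 to 26.3 CPM in females and 146.3 to 184.1 CPM in males. These genes had no larval library in the adult range, except that Cyp6a19 was as low in nonexercised males (0.139 to 0.987 CPM) as in larvae. Cyp6a20, which is linked to aggression of males, had a Log2FC in larvae of -5.72 ± 0.17 against females and -7.00 ± 0.16 against males. Cyp308a1 was also among the 5 genes with the lowest Log2FC in both comparisons, with at most 0.0452 CPM in larvae and medians of 0.795 CPM in nonexercised females and 1.67 CPM in nonexercised males.

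A smaller group was higher in larvae. Cyp304a1 measured 18.9 to 32.3 CPM in larvae (median 26.4) and at most 2.04 CPM in nonexercised flies of either sex. Its Log2FC was 5.06 ± 0.24 against females and 4.92 ± 0.24 against males. Cyp4d1 measured 65.4 to 158 CPM in larvae and 4.98 to 17 CPM in nonexercised adults, with Log2FC of 4.0 ± 0.19 against females and 4.18 ± 0.19 against males. All 8 larval libraries of Cyp304a1 and Cyp4d1 lay above all 16 nonexercised adult libraries. The other genes with the highest Log2FC were Cyp312a1 (4.36 ± 0.12), Cyp309a1 (4.0 ± 0.18) and Cyp310a1 (3.36 ± 0.20) against females, and Cyp313b1 (2.65 ± 0.12), Cyp6d2 (2.10 ± 0.09) and Cyp4ad1 (1.97 ± 0.19) against males. Cyp6d2, linked to resistance to camptothecin, was higher in larvae in both comparisons, with 24.7 to 30.9 CPM against 7.03 to 11.3 CPM in nonexercised adults. The larval storage and glue protein genes, a check of the stage, were higher in larvae for 9 of 9 genes in both comparisons (39.7% and 34.2% of all genes).

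By role, the 12 genes of insecticide and toxin breakdown counted 8 higher and 3 lower in larvae against females (39.7% and 32.7% of all genes), and 1 higher and 5 lower against males (34.2% and 39.5%). Of 11 midgut proteases, 7 were higher and 1 lower in larvae against females, and 9 were higher against males. Of 4 Malpighian tubule genes, 3 and 4 were lower in larvae in these comparisons. The part of these tissues in the counts was not tested. Cyp6g1 measured 148.2 to 278.2 CPM in larvae and, without exercise, 54.5 to 167.1 CPM in females and 300.7 to 406.2 CPM in males, so that larvae lay between the sexes and overlapped females. Cyp6w1, linked to DDT resistance, measured 2.41 to 14.4 CPM in larvae, below all libraries of nonexercised females (28.3 to 45.6) and males (65.5 to 105.2). Of the hormone genes, Cyp18a1 was lower in larvae than in nonexercised females (7.96 to 20.2 against 44.1 to 61.6 CPM, Log2FC -1.35 ± 0.15) and was not called against males (-0.30 ± 0.15). Cyp6t3, which acts in ecdysone synthesis, was under 0.3 CPM in all larval libraries, and its Log2FC was -2.42 ± 0.21 against females and -3.39 ± 0.20 against males. Without attP2 larvae replicate 2, 71 Cyp genes were called against females and 60 against males. Among the changes, Cyp28d2 had a Log2FC of -0.84 against males without that library and -0.19 with it, and Cyp6g1 was no longer called against males (-0.47 without it, -0.53 with it).

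**Figure D2:**
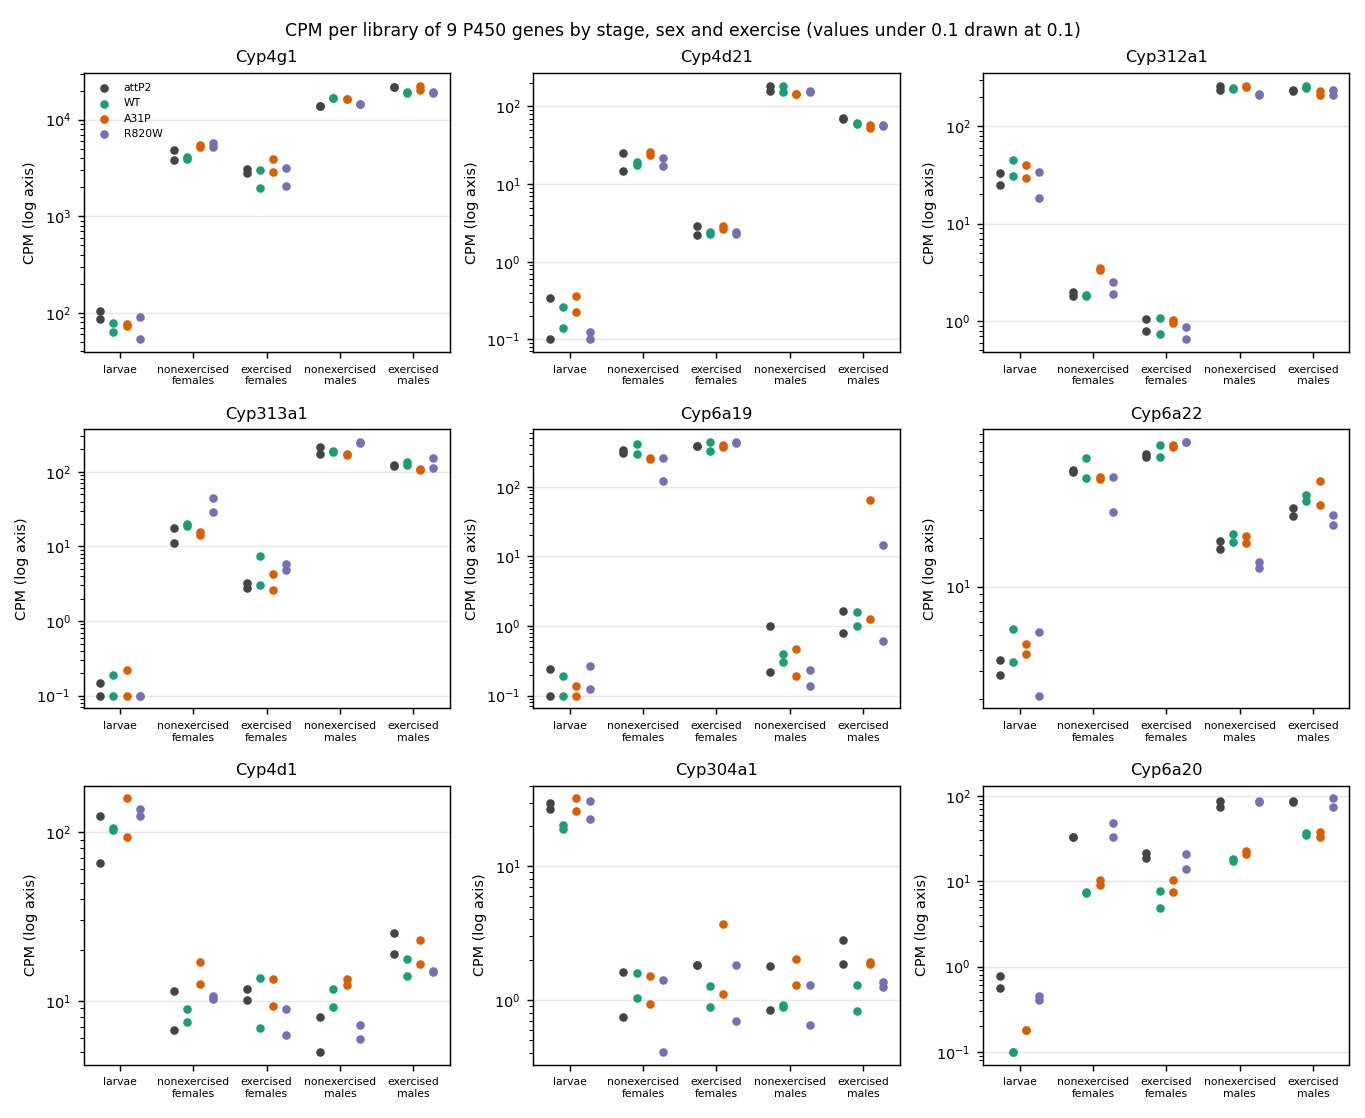
CPM of 9 P450 genes in each library (log axis, values under 0.1 drawn at 0.1), by condition, with a point for each replicate coloured by line. Cyp4g1, Cyp4d21, Cyp313a1 and Cyp312a1 have all male libraries above all female ones, Cyp6a19 has them reversed, and Cyp4d1 and Cyp304a1 are highest in larvae.

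Males had more P450 RNA than females, and the difference ran through most of the genes. Among nonexercised flies 67 Cyp genes were called, 60 higher in males and 7 lower, where 77.9% of all genes tested were called, 45.8% higher and 32.1% lower. Among exercised flies 75 were called, 68 higher in males and 7 lower, where the shares of all genes were 84.6%, 51.3% and 33.3%. The median Log2FC was 1.06 for the Cyp genes and 0.37 for all genes among nonexercised flies, and 1.41 and 0.73 among exercised flies. In CPM, 41 genes had all 8 male libraries above all 8 female ones among nonexercised flies and 7 had them below (38.3% and 30.7% of all genes), and 67 and 6 among exercised flies (52.6% and 27.7% of all genes). Sex among exercised flies cannot be told apart from the lane. Of the 60 genes called higher in nonexercised males, 59 were also called higher in exercised males, 98.3% of the first list and 86.8% of the second. For all genes these shares were 97.3% and 87%. The 2 comparisons share no library.

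**Figure D3:**
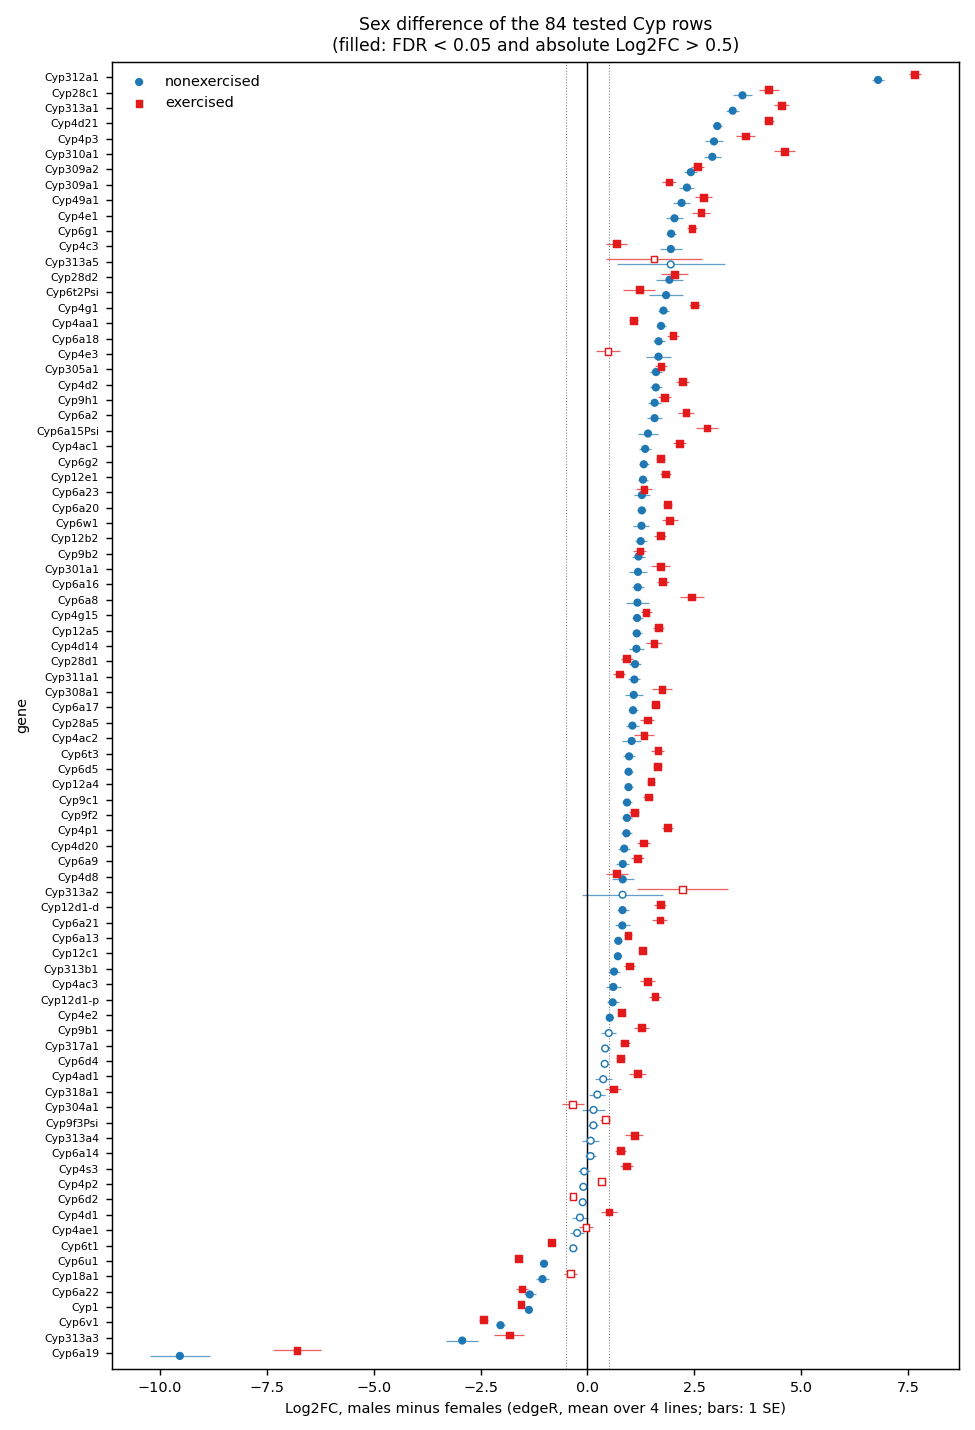
Log2FC of males minus females for the 84 tested Cyp genes (rows, ordered by the nonexercised value), in nonexercised (circles) and exercised flies (squares), with bars of 1 SE and filled symbols for called genes. Cyp312a1 lies farthest to the right (6.80 and 7.66), Cyp6a19 farthest to the left (-9.54 and -6.80), and 60 and 68 filled symbols lie on the side of males.

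Cyp312a1 showed the largest rise on the side of males. In females it measured 1.81 to 3.47 CPM without exercise (median 1.94) and 0.647 to 1.08 CPM with it (median 0.914), and in males 209 to 257.5 CPM (median 242.6) and 207.6 to 258.8 CPM (median 233.5). The Log2FC was 6.80 ± 0.13 among nonexercised flies (edgeR, Benjamini-Hochberg adjusted p = 2.3e-23) and 7.66 ± 0.14 among exercised flies. Its larval level of 18.2 to 44.5 CPM lay between the sexes, as did the summed CPM of 10 testis genes (median 240.9 in larvae, 1.08 in nonexercised females, 1786 in nonexercised males), and the part of testis RNA in the level of Cyp312a1 was not tested. Cyp313a1 (Log2FC 3.40 ± 0.16 and 4.55 ± 0.17 in nonexercised and exercised flies), Cyp4d21 (3.04 ± 0.10 and 4.24 ± 0.11) and Cyp28c1 (3.63 ± 0.21 and 4.24 ± 0.24) were among the 5 highest in both comparisons. Cyp4p3 (2.96 ± 0.20) was the remaining one of nonexercised flies and Cyp310a1 (4.61 ± 0.24) of exercised flies. Cyp4d21 is known for its higher level in males, and its male libraries held at least 53 CPM against at most 26.3 CPM in females.

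Cyp4g1 was higher in males by a Log2FC of 1.78 ± 0.12 among nonexercised flies and 2.50 ± 0.12 among exercised flies. The 2 tested genes of the oenocyte list were also higher in males in both comparisons (median Log2FC 4.29 and 4.48). So were the 4 Malpighian tubule genes in the table. Summed CPM of these 4 had medians of 101.7 and 71.9 in nonexercised and exercised females and 199 and 270 in nonexercised and exercised males. Whether the genes of either list mark these tissues alone was not tested. The part of the genes of these 2 lists in the sex difference of the P450 genes was not tested either. Of the 12 genes of insecticide and toxin breakdown, 11 were higher in nonexercised males and 10 in exercised males (45.8% and 51.3% of all genes), and none was called lower (32.1% and 33.3%). Cyp6d2 (Log2FC -0.11 ± 0.09 and -0.34 ± 0.09) was not called in either comparison and Cyp4e3, linked to permethrin tolerance, not in exercised flies (0.48 ± 0.28). Cyp6g1 had the highest level of them, with 54.5 to 167.1 CPM in nonexercised females and 300.7 to 406.2 CPM in nonexercised males. By family, all 7 Cyp12 and all 4 Cyp28 genes were higher in males in both comparisons. Of the 22 Cyp4 genes, 17 were higher in nonexercised males and 19 in exercised males, and none was called lower.

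Cyp12a4, a mitochondrial P450 linked to lufenuron resistance, measured 33.4 to 61.8 CPM in nonexercised females and 75.4 to 90.1 CPM in nonexercised males, without overlap (Log2FC 0.96 and, among exercised flies, 1.48). Cyp6g2, expressed in the corpora allata where juvenile hormone is made (1.32 and 1.71), Cyp301a1, needed for the adult cuticle (1.18 and 1.70), Cyp305a1 of the CYP2 clan (1.60 and 1.72) and Cyp311a1, which acts in phospholipid homeostasis of the midgut (1.10 and 0.74), were higher in males in both comparisons. Cyp18a1, given below, was lower in nonexercised males. Of the 11 midgut proteases, 9 were lower in nonexercised males and 4 in exercised males (32.1% and 33.3% of all genes). Cyp303a1, which was not tested, reached at most 0.376 CPM in any library.

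Few genes were higher in females. Cyp6a19 had 122.4 to 413.4 CPM in nonexercised females (median 280.8) and 324.1 to 437.8 in exercised females (median 386.9). It had 0.139 to 0.987 CPM in nonexercised males (median 0.27), and 0.600 to 1.64 CPM in 6 of the exercised male libraries. The Log2FC was -9.54 ± 0.69 among nonexercised flies (edgeR, Benjamini-Hochberg adjusted p = 7.5e-12). The exercised male libraries A31P replicate 2 and R820W replicate 2, which held yolk and eggshell RNA, measured 65.5 and 14.6 CPM of Cyp6a19, 16.7% and 3.72% of the exercised female mean. The Log2FC among exercised flies was -6.80 ± 0.56 with these libraries and -8.87 ± 0.28 without them, and the number of Cyp genes called in that comparison was 75 with and without them.

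Cyp6v1 (Log2FC -2.04 ± 0.11 and -2.43 ± 0.11 in nonexercised and exercised flies), Cyp6a22 (-1.35 ± 0.14 and -1.53 ± 0.14), Cyp6u1 (-1.02 ± 0.07 and -1.61 ± 0.07), Cyp313a3 (-2.93 ± 0.37 and -1.83 ± 0.35) and the cyclophilin gene Cyp1 (-1.37 ± 0.06 and -1.55 ± 0.06) were also lower in males in both comparisons. Cyp6v1 measured 70.7 to 138.2 CPM over the 16 female libraries and 22 to 49.2 CPM over the 16 male ones, without overlap. Cyp18a1 completed the list in nonexercised flies alone, with 44.1 to 61.6 CPM in females and 21.5 to 29.1 CPM in males (Log2FC -1.05 ± 0.15), and was not called among exercised flies (-0.39 ± 0.15). Cyp6t1 completed it in exercised flies. Cyp6a19 overlaps Cyp6a9 on the other strand by 397 bases, and Cyp6u1 overlaps CG30157 on its own strand. Whether the counting used strand is not given in the sources used here, so reads from overlapping genes cannot be told apart.

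The partners of the P450 enzymes differed between stage and sex as well. Cpr, the reductase that feeds the microsomal enzymes, had medians of 1171 CPM in exercised males, 853.2 in nonexercised males, 414.6 in nonexercised females, 338.9 in exercised females and 53 in larvae. Its Log2FC was -2.34 in larvae against females, -3.44 in larvae against males, and 1.10 and 1.44 in males against females among nonexercised and exercised flies, all called. Cyt-b5, the other microsomal electron donor, was also lower in larvae (-0.93 and -1.60) and higher in males (0.67 and 0.89). The mitochondrial donors went the other way between the sexes, with dare, the adrenodoxin reductase, at -1.33 and -1.69 and the adrenodoxin Fdxh at -0.81 and -0.87 in males. Alas, which starts haem synthesis, was higher in males (1.17 and 1.45) and lower in larvae (-1.57 and -2.74), whereas Ho, the haem oxygenase that breaks haem down, was higher in larvae (2.43 and 2.27). None of these 6 genes was called between exercised and nonexercised flies.

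Among the 6 regulators tested, the xenobiotic receptor Hr96 and the partner tgo of the aryl hydrocarbon receptor homologue were lower in males in both comparisons (Log2FC -1.18 and -1.20, and -1.03 and -0.94), while ss, that homologue, was higher (1.48 and 2.35). Keap1, the inhibitor of the stress regulator cnc, was the regulator called higher in exercised males (0.77). Of the 6 P450 genes of ecdysone synthesis, phm, sad, shd and spok were higher in larvae in both comparisons, with spok at 7.79 and 8.69. The gene spo was lower in larvae than in females (-8.22) and lower in males than in females (-7.84 and -4.13), and dib was also lower in males (-5.92 and -4.77). In CPM, spo ran from 10.2 to 18.3 in nonexercised and from 1.2 to 3.35 in exercised females. There phm, dib, sad and shd, at most 5.42 CPM, also had all exercised libraries below all nonexercised ones (14.7% of all genes). In males only phm did so (1.25% of all genes), and spok reached at most 0.324 CPM in adults. These differences cannot be told apart from the flow cell.

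Exercised and nonexercised flies differed in more Cyp genes in females than in males. In females 42 Cyp genes were called, 6 higher and 36 lower after exercise, where 34.1% of all genes tested were called, 11.4% higher and 22.7% lower. In males 16 were called, 10 higher and 6 lower, where the shares of all genes were 9.66%, 5.11% and 4.54%. The median Log2FC of the Cyp genes was -0.43 in females (-0.09 over all genes) and 0.04 in males (0.02 over all genes). In CPM, 3 genes lay higher and 18 lower in all exercised female libraries (3.54% and 14.7% of all genes), and 22 higher and 3 lower in all exercised male libraries (24% and 1.25% of all genes). The 22 genes are counted in CPM and the 10 after TMM scaling, which set Log2FC lower than the ratio of CPM by 0.29 in males and higher by 0.14 in females. Without the 2 exercised male libraries with yolk and eggshell RNA, 12 genes were called in males, and Cyp4ae1, Cyp4d14, Cyp6a18 and Cyp6a22 were no longer among them. None of these differences can be told apart from the flow cell. By the methods of the study, exercised flies were also scored for climbing on the day before the shaker and again after it. The part of this handling was not tested.

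Cyp4d21 was the P450 gene with the lowest Log2FC in both sexes. It measured 14.9 to 26.3 CPM in nonexercised females and 2.2 to 2.92 CPM in exercised females, with a Log2FC of -2.91 ± 0.11 (edgeR, Benjamini-Hochberg adjusted p = 4.37e-15). In males it measured 146.3 to 184.1 CPM without and 53 to 71.1 CPM with exercise, with a Log2FC of -1.70 ± 0.10 (adjusted p = 3.36e-12, edgeR with Benjamini-Hochberg). No exercised library overlapped a nonexercised one of the same sex. Cyp313a1 (-2.13 ± 0.16 in females, -0.98 ± 0.14 in males) and Cyp4ac2 (-1.43 ± 0.24 and -1.14 ± 0.23) were lower in both sexes too. Cyp4ac2 measured 11.1 to 21.5 CPM in nonexercised females and 2.93 to 7.22 in exercised ones, and 27.9 to 35 CPM in nonexercised males and 10.9 to 26.8 in exercised ones. It lies within tkv on the other strand, as Cyp4ac1 and Cyp4ac3 do, and reads of the pair cannot be told apart if the counting did not use strand.

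Cyp4g1 measured 3850 to 5710 CPM in nonexercised and 1954 to 3881 CPM in exercised females (Log2FC -0.61 ± 0.12), with overlapping libraries, and in males it was not called (0.11 ± 0.12). Cyp6d5, inducible by xenobiotics, measured 108.6 to 209 CPM in nonexercised and 56.9 to 102 CPM in exercised females (Log2FC -0.83 ± 0.10), without overlap. Cyp18a1 measured 44.1 to 61.6 and 18.7 to 33.5 CPM (Log2FC -0.75 ± 0.15), also without overlap. Neither Cyp6d5 (-0.16 ± 0.10) nor Cyp18a1 (-0.10 ± 0.15) was called in males. Cyp310a1 (-1.81 ± 0.28), Cyp313a4 (-1.34 ± 0.21), Cyp4ac1 (-1.20 ± 0.14) and Cyp312a1 (-1.19 ± 0.16) were lower in exercised females at low to moderate levels. By family, 11 of 22 Cyp4 genes and 10 of 25 Cyp6 genes were lower in exercised females, and 2 and 3 were higher. Over all genes tested, 22.7% were called lower and 11.4% higher in exercised females, which also applies to the marker lists that follow. Markers of other tissues were also lower in exercised females, with 9 of 9 larval storage and glue protein genes (median Log2FC -3.92), 3 of 4 Malpighian tubule genes, 7 of 11 midgut proteases, 5 of 7 accessory gland genes, 4 of 10 testis genes, 4 of 14 yolk and eggshell genes and 1 of 2 oenocyte genes called lower, and 1 of 2 heart genes called higher. In exercised males, 6 of 9 larval genes (median -3.03), 1 of 7 accessory gland genes and 1 of 2 oenocyte genes were called lower, and 2 of 11 midgut proteases and 1 of 14 yolk and eggshell genes higher. No Malpighian tubule, testis or heart gene was called in exercised males, where 4.54% of all genes were called lower and 5.11% higher. Summed accessory gland CPM in females ran from 0.899 to 1.55 without exercise and from 0 to 0.277 with it, where nonexercised males had a median of 2923. The testis genes had medians of 1.08 and 0.139 in nonexercised and exercised females, against 1786 in nonexercised males. For the larval genes these were 68.7 and 20.7, against 36400 in larvae. Nonexercised females shared lanes with larvae and males, while exercised females did not. The source of these low counts was not tested, nor was the part of any marked tissue in the changes of the P450 genes.

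The genes that rose in exercised males included several of toxin breakdown. Cyp12d1-d and Cyp12d1-p, near-identical neighbouring copies of a mitochondrial P450 that metabolizes insecticides, measured 39.2 to 56.5 and 24.6 to 34.8 CPM in nonexercised males and 117.9 to 180.6 and 78.8 to 112.7 CPM in exercised males. Their Log2FC was 1.32 ± 0.14 and 1.34 ± 0.14 in males, and 0.44 ± 0.14 and 0.35 ± 0.14 in females, where neither was called. Since the copies share sequence, how reads were split between them is uncertain, but both showed the same direction. Cyp6w1 measured 65.5 to 105.2 CPM in nonexercised and 192.3 to 298.5 CPM in exercised males (Log2FC 1.27 ± 0.18), and it was called in females with a smaller value (0.61 ± 0.19). Cyp309a1 was higher after exercise in both sexes, from 1.37 to 6.1 CPM to 7.25 to 9.55 CPM in females (1.54 ± 0.18) and from 11 to 20 CPM to 28.4 to 51.4 CPM in males (1.12 ± 0.16). Exercised and nonexercised libraries of these 4 genes did not overlap in males. Cyp4d1 (0.74 ± 0.18) and Cyp6a2, which is inducible by barbital and caffeine (0.85 ± 0.17), were further genes called higher in males. Of the 12 genes of insecticide and toxin breakdown, 4 were higher and none lower in exercised males (5.11% and 4.54% of all genes), and 1 was higher and 2 lower in exercised females (11.4% and 22.7%). Cyp6a19 was called higher in exercised males with a Log2FC of 3.41 and, without A31P replicate 2 and R820W replicate 2, of 1.33 ± 0.36. Without them its difference between the sexes in the response to exercise was no longer called (0.67 ± 0.39, against 2.74 with them), and its value in exercised females was called (0.66 ± 0.14).

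**Figure D4:**
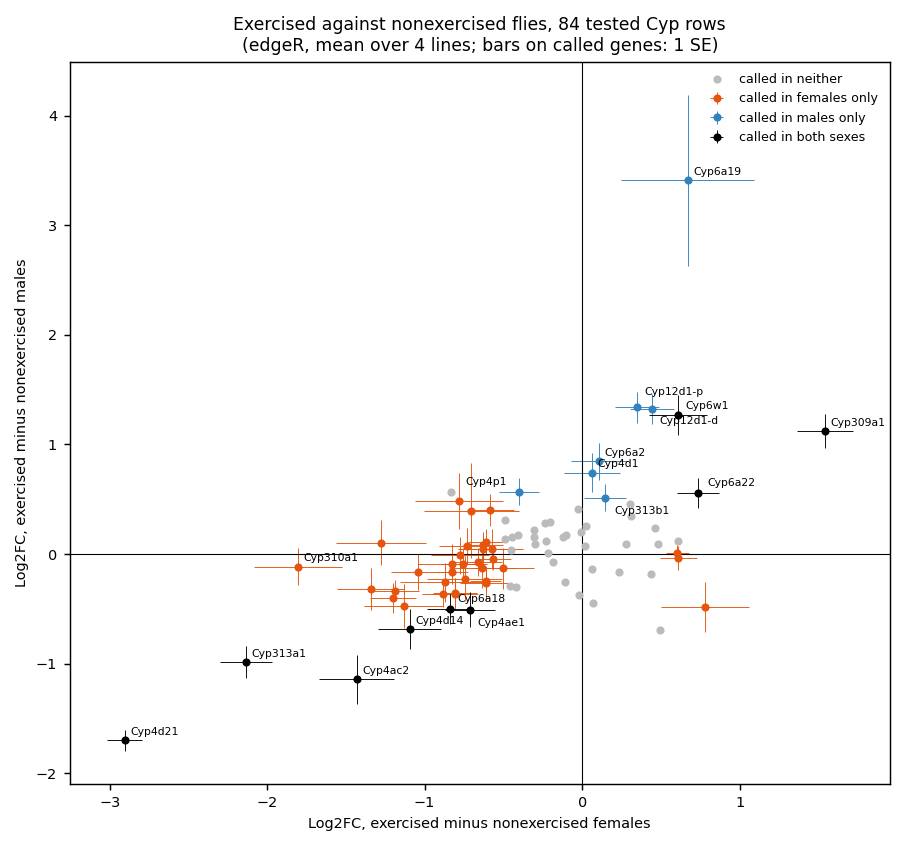
Log2FC of exercised minus nonexercised flies for the 84 tested Cyp genes, females on the x axis and males on the y axis, coloured by where a gene was called, with bars of 1 SE on called genes. Cyp4d21 (-2.91 and -1.70) is at the lower left, Cyp309a1 (1.54 and 1.12) at the upper right, and Cyp6a19 at the top rests on 2 exercised male libraries for much of its value.

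All 6 genes called lower in exercised males (Cyp4d21, Cyp4ac2, Cyp313a1, Cyp4d14, Cyp4ae1 and Cyp6a18) were also called lower in exercised females, which was 100% of the male list and 16.7% of the female list. For all genes the shares were 54.2% and 10.8%. Cyp309a1, Cyp6w1 and Cyp6a22 were called higher in both sexes, 30% of the male and 50% of the female list, against 27.4% and 12.3% for all genes. These lists are short. Without A31P replicate 2 and R820W replicate 2 of the exercised males, Cyp4d14, Cyp4ae1 and Cyp6a18 were no longer called lower in males, which left 3 genes, nor was Cyp6a22 called higher. With the replicate number as a block, 3 genes were called lower in males. The exercise comparisons of females and males share no library. The difference between the responses of the sexes was tested as an interaction. It was called for 39 Cyp genes (26.3% of all genes), the response being more positive in males for 34 and more negative for 5, where 20.1% and 6.27% of all genes were called. The median difference was 0.49 for the Cyp genes and 0.17 for all genes. The largest called differences with no overlap between the 4 lines of males and those of females were those of Cyp310a1 (1.69 ± 0.33), Cyp6a15Psi (1.38 ± 0.35), Cyp6a8 (1.27 ± 0.38), Cyp4d21 (1.21 ± 0.14) and Cyp313a1 (1.15 ± 0.21). In exercised females the line means of Cyp310a1 (0.273 to 0.467 CPM) and Cyp6a15Psi (0.167 to 0.514 CPM) came near the floor of 0.111 to 0.162 CPM. Cyp4g1 (0.72 ± 0.16), Cyp6d5 (0.67 ± 0.14), Cyp12d1-p (0.99 ± 0.20) and Cyp12d1-d (0.88 ± 0.20) were also called. Of the 5 more negative in males, Cyp6u1 measured -0.60 ± 0.10, Cyp4c3 -1.27 ± 0.36 and Cyp4e3 -1.18 ± 0.40. Without nonexercised males attP2 replicate 1, which held 154.8 CPM of Cyp4e3 where replicate 2 held 23, the value of Cyp4e3 was -0.77 ± 0.29 and still called. Other values also moved without that library. Those of Cyp12a4, Cyp12a5, Cyp12e1 and Cyp6a17 went from 0.52 each to 0.46, 0.44, 0.46 and 0.44, under the threshold of 0.5. Cyp4d1 went from 0.68 to 0.53, Cyp4ad1 from 0.8 to 0.73, Cyp4p3 from 0.73 to 0.67 and Cyp6a16 from 0.59 to 0.52. None of these was called any longer, although the values stayed above 0.5. Values at the threshold also moved without a library outside this comparison. Without larvae attP2 replicate 2, Cyp12a4, Cyp12a5, Cyp12e1 and Cyp6a17 had 0.46, 0.45, 0.45 and 0.45. The count of 39 fell to 24 without nonexercised females R820W replicate 2, where Cyp6d5 was no longer called, and was 40 without the 2 exercised male libraries that stood apart.

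Finally the 4 lines were compared within each condition, in all 6 pairs, with the 8 libraries of the condition in 1 fit. Called in at least 1 pair was 1 Cyp gene of 76 tested in larvae, where 0.0467% of all genes tested were called. In females 9 of 81 were called without exercise (2.06% of all genes) and 4 of 79 with it (0.187%), and in males 13 of 80 without exercise (2.65%) and 12 of 81 with it (2.48%). In any of the 30 pairs, 16 of 85 tested Cyp genes were called, 18.8%, against 5.08% of 14732 genes. Several of the 16 are neighbours on a chromosome and are no independent members. By arm, 10 of 35 tested Cyp genes on 2R, 5 of 13 on 2L, 1 of 15 on X, 0 of 6 on 3L and 0 of 16 on 3R were called, where the arms' shares over all genes were 5.64%, 7.77%, 3.58%, 4.39% and 3.96%. The attP2 site of the transgenes lies on the chromosome made up of 3L and 3R.

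These counts depended on single libraries. The count in nonexercised females was 5 without either A31P or either attP2 replicate, 1 and 2 without WT replicate 1 or 2, and 51 and 17 without R820W replicate 1 or 2. In exercised females it was 2 without either A31P replicate, 1 without either attP2 replicate and 7 without WT replicate 1. In exercised males it was 7 without either WT replicate, 6 without either attP2 replicate, 28 without A31P replicate 1 and 20 without both libraries that held yolk and eggshell RNA. In nonexercised males it was 22 without attP2 replicate 2, and in larvae 0 without either A31P replicate and 2 without attP2 replicate 1. With the replicate number, which in larvae and nonexercised flies was the lane, as a block, the count in nonexercised females was 26.

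Cyp4p2 in A31P was the difference found in all 5 conditions. In larvae it measured 27.9 and 27.4 CPM in attP2 (replicates 1 and 2), 24 and 31.8 in WT, 26.9 and 23.7 in R820W, but 0.401 and 0.497 in A31P. In nonexercised females the values were 30.6 and 24.9 CPM in attP2, 19.1 and 18.1 in WT, 27.8 and 24.1 in R820W, and 1.9 and 2.06 in A31P. In nonexercised males they were 24.3 and 21 CPM in attP2, 16.4 and 14.3 in WT, 21.3 and 23.6 in R820W, and 2.08 and 2.03 in A31P. A31P lay apart from all other libraries in each of these conditions. The same held in exercised females, with 1.57 and 2.75 CPM in A31P against 10.9 to 27.3 CPM in the other lines, and in exercised males, with 5.57 and 4.08 CPM against 24.3 to 32.6 CPM.

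The Log2FC of Cyp4p2 in A31P against attP2 was -5.96 ± 0.24 in larvae (edgeR, Benjamini-Hochberg adjusted p = 0.0012). In females it was -3.77 ± 0.19 without and -3.43 ± 0.28 with exercise, and in males -3.55 ± 0.15 and -2.77 ± 0.14. It was also called against WT and against R820W in larvae, nonexercised females and both male conditions, and against R820W in exercised females. WT was called against attP2 in nonexercised males alone (-0.59). In larvae these calls were lost without either A31P replicate, and in exercised females that against attP2 without either attP2 replicate. The gene lies on 2R at 9237512 to 9239831 (release 6 assembly), followed by Cyp4p1 and Cyp4p3 within 5 kb, and neither neighbour was called in any pair of lines. All of them lie within hig on the other strand.

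Cyp6a2 was higher in A31P in adults. In nonexercised males it measured 78.6 and 74.9 CPM in A31P, 24.5 and 19.7 in attP2, 22.4 and 24.1 in WT, and 18.6 and 23.2 in R820W. In exercised males it measured 126.9 and 131.4 CPM in A31P and 39.8 to 64.7 CPM in the other lines. In females it measured 32.6 and 29.3 CPM without and 26.5 and 35.8 CPM with exercise in A31P, against at most 10.2 CPM in the other lines. The libraries of A31P did not overlap those of any other line in the 4 adult conditions. The Log2FC against attP2 was 2.22 ± 0.23 and 2.15 ± 0.22 in females without and with exercise, and 1.71 ± 0.12 and 1.53 ± 0.12 in males. The 2 male calls were kept whichever library was left out, while that in nonexercised females was lost without either attP2 replicate or WT replicate 1, and that in exercised females without either attP2 replicate or A31P replicate 2. In larvae Cyp6a2 was under 1.5 CPM except in attP2 replicate 2 (3.36 CPM), which stood apart. It lies on 2R at 6779749 to 6781491, within Epac on the same strand, so its reads and those of Epac overlap. The neighbour CG34215 was also called higher in A31P against attP2 in nonexercised females (Log2FC 2.71) and nonexercised males (0.85).

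A cluster of Cyp6a genes split the lines differently, with WT and A31P on one side and attP2 and R820W on the other. The cluster spans 14871366 to 14889010 on 2R and holds Cyp6a22, Cyp6a17, Cyp6a23, Cyp6a19, Cyp6a9, Cyp6a20, Cyp6a21 and Cyp6a8 in this order. In nonexercised males Cyp6a20 measured 87.5 and 73.6 CPM in attP2, 86.1 and 84.5 in R820W, 17.4 and 18 in WT, and 20.9 and 22.4 in A31P. Cyp6a8, overexpressed in DDT resistant strains, measured 40.3 and 38.2 CPM in attP2, 38 and 34.6 in R820W, 12.7 and 13.8 in WT, and 12 and 14.8 in A31P. Cyp6a23 measured 66.9 and 72.1 CPM in attP2, 69.5 and 69.1 in R820W, 30.1 and 32.8 in WT, and 37 and 40.6 in A31P. Cyp6a17, linked to temperature preference, went the other way, with 38.6 and 39.7 CPM in attP2, 36.8 and 39.8 in R820W, 65.4 and 69.4 in WT, and 66.7 and 72.2 in A31P. Cyp6a9 followed Cyp6a20 with a smaller difference, 52.3 to 63.3 CPM in attP2 and R820W and 35.4 to 41.7 CPM in WT and A31P. In none of these 5 genes did the libraries of WT and A31P overlap those of attP2 and R820W in nonexercised males.

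The Log2FC against attP2 in nonexercised males was, for WT and A31P respectively, -2.22 ± 0.11 and -1.98 ± 0.10 for Cyp6a20, -1.60 and -1.64 for Cyp6a8, -1.18 and -0.93 for Cyp6a23, and 0.75 and 0.73 for Cyp6a17, all called, and -0.61 for Cyp6a9 in WT. R820W was not called against attP2 for any gene of the cluster in any condition. In exercised males the 5 genes were again called in both WT and A31P against attP2, with Cyp6a20 at -1.27 and -1.29 and Cyp6a17 at 0.89 and 0.82. In nonexercised females Cyp6a20 was called in WT (-2.12 ± 0.25) and A31P (-1.75 ± 0.25), as was Cyp6a23 (-1.97 and -1.17), while Cyp6a9 was called in WT (-1.07 ± 0.16) and Cyp6a17 in A31P (1.14 ± 0.19). In exercised females Cyp6a23 alone was called (-1.43 and -1.36). The members of the cluster that were not called in any pair were Cyp6a22, Cyp6a19 and Cyp6a21. In nonexercised males the calls of Cyp6a20 held whichever library was left out, whereas those against attP2 in nonexercised females and exercised males were each lost without at least 1 library. Of the other genes tested within 50 kb of the cluster, CG10249 was called in R820W against WT in nonexercised females (0.81) and Ciao1 in WT against attP2 in exercised males (-0.51), and no other gene in any pair.

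**Figure D5:**
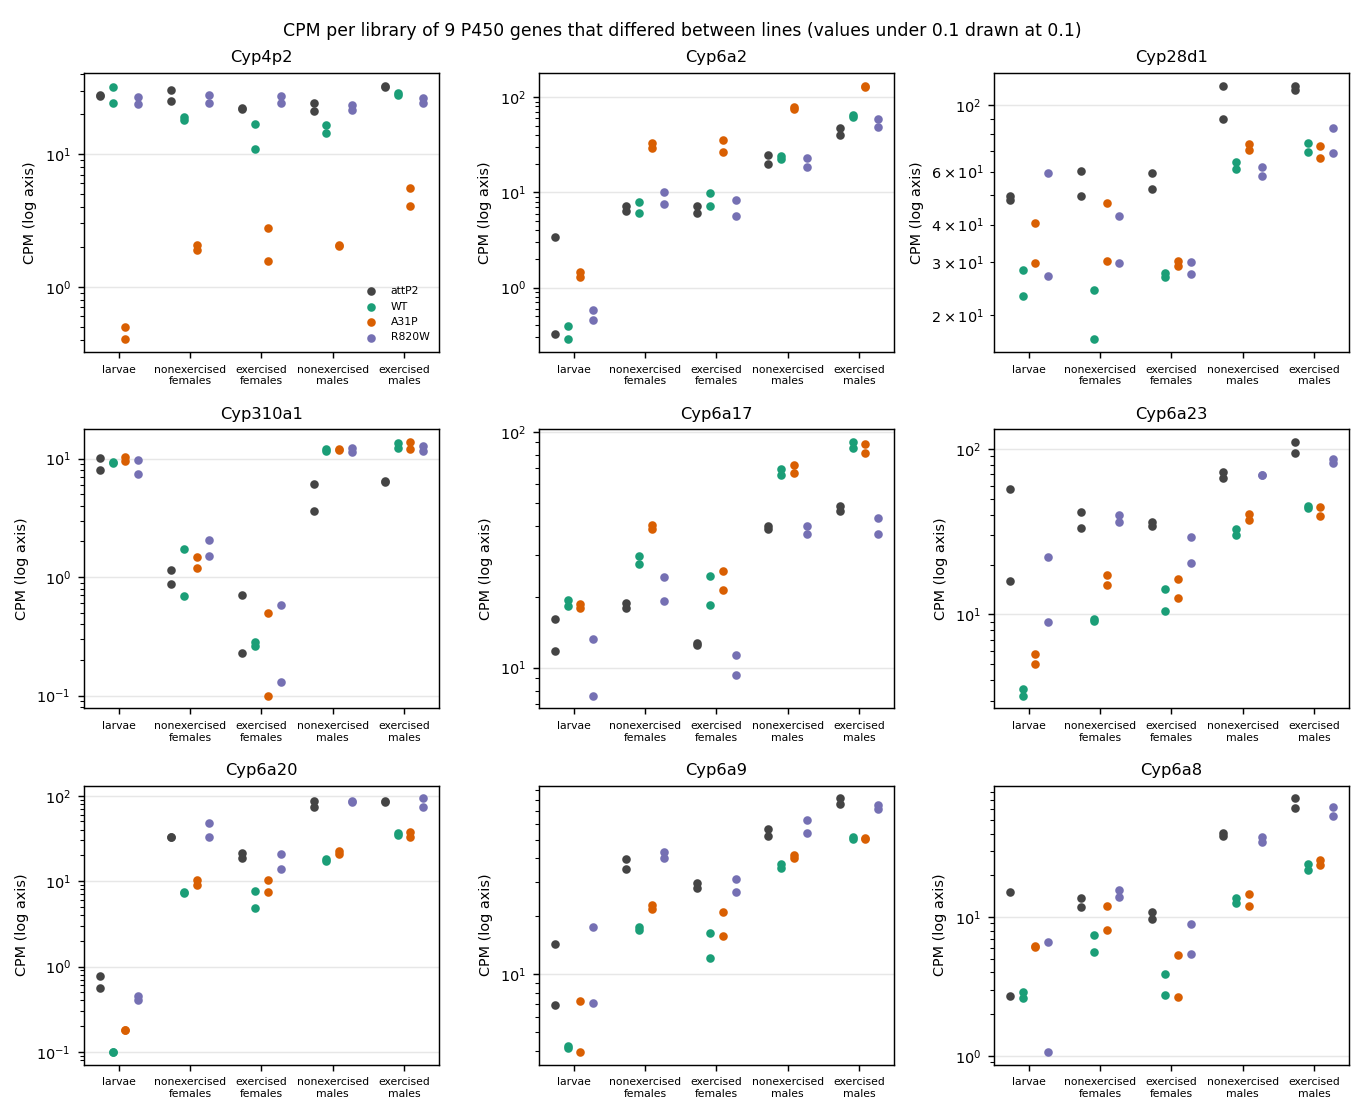
CPM of 9 P450 genes that differed between lines (log axis, values under 0.1 drawn at 0.1), by condition, with a point for each replicate coloured by line. A31P is low in Cyp4p2 and high in adult Cyp6a2, attP2 is low in male Cyp310a1, and WT and A31P are low in Cyp6a23, Cyp6a20, Cyp6a9 and Cyp6a8 and high in Cyp6a17 in males.

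Other genes set attP2 apart from all 3 transgenic lines. Cyp28d1, linked to nicotine resistance, had 89.5 and 115.1 CPM in attP2, above the 58.1 to 74.2 CPM of the transgenic lines, in nonexercised males, and the Log2FC against attP2 was -0.74 (WT), -0.59 (A31P) and -0.87 (R820W). In exercised females attP2 had 52.4 and 59.5 CPM and the transgenic lines 26.8 to 30.1 CPM (-0.96, -0.99 and -1.01), and in exercised males WT (-0.66) and A31P (-0.73) were called. Cyp310a1 was at 3.62 and 6.06 CPM in attP2, below the 11.4 to 12.2 CPM of the transgenic lines, in nonexercised males (1.26, 1.21 and 1.20), and 6.47 and 6.34 against 11.6 to 13.8 CPM in exercised males (1.01, 0.99 and 1.0). Cyp4ac3 was at 14.2 and 12.6 CPM in attP2, above the 7.86 to 8.95 CPM of the transgenic lines, in nonexercised males (-0.78, -0.79 and -0.71). In each of these comparisons the attP2 libraries lay outside the range of the 3 lines. Cyp310a1 lies within MESR3 and Cyp4ac3 within tkv, each on the other strand.

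The remaining calls were in few pairs of lines. Cyp4ac1 and Cyp6a16 were lower in R820W than in attP2 in nonexercised males (Log2FC -0.60 and -1.05) and exercised males (-0.84 and -0.97). WT and A31P were not called against attP2 for these genes but also had lower mean CPM in both male conditions. In nonexercised males Cyp6a16 had 6.53 CPM in attP2, 3.77 in WT, 3.73 in A31P and 3.36 in R820W. In exercised males Cyp4ac1 had 77.7 CPM in attP2, 49.5 in WT, 46.7 in A31P and 41.4 in R820W. Cyp18a1 was lower in WT than in attP2 in exercised males, with 20.2 and 20 against 40.5 and 39.2 CPM (-1.0 ± 0.16). Cyp9b2 was higher in A31P than in attP2 in nonexercised males, with 107.1 and 124.1 against 66 and 76.1 CPM (0.61 ± 0.12). In nonexercised females Cyp4aa1 (1.51 ± 0.28) and Cyp6g1 (1.30 ± 0.24) were higher in R820W than in WT. Over the 5 conditions, 104 results of a gene in a pair of lines were called. Of these, 71 were lost when at least 1 library was left out. Only 29 were kept under every setting tried and every library left out. Of these, 10 were for Cyp4p2, 6 for Cyp6a8, 4 each for Cyp6a2, Cyp6a20 and Cyp6a23, and 1 for Cyp6a17. No call of Cyp28d1, Cyp310a1, Cyp4ac3 or the genes called in few pairs was among them. Cyp4g1, the most abundant P450 RNA of adults, was not called in any of the 30 pairs.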

How the data were processed

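RNA of whole flies in 40 libraries was measured by the authors after rRNA depletion, with directional libraries and single reads. They trimmed the reads with Cutadapt, removed rRNA reads with TopHat and counted the rest per gene in CLC Genomics Workbench 11 on release 6.13. The deposited values tested here are raw counts per gene. The RPKM given here are those the authors deposited, scaled to exon length and mapped reads. The TPM deposited by the authors, scaled per length and library, were left out. So were deposited columns headed CPM, treated as a score because the authors scaled them by further library factors. How reads with several hits or the strand were treated is not given in the sources used here.

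CPM were computed on total counts. Genes were tested with edgeR 4.0.16 in R 4.3.3 (TMM, filterByExpr with a minimum count of 10 and total of 15, robust quasi-likelihood F test, Benjamini-Hochberg over all genes tested, called at an adjusted p under 0.05 with an absolute Log2FC over 0.5). The 40 libraries entered 1 fit with 20 group means for stage, sex and exercise, and the 8 libraries of a condition 1 fit for its 6 pairs of lines. SE were obtained from Log2FC and F. Log2FC of an interaction is the response in males minus that in females. The steps were tested on simulated data. Depth was 18493813 to 26917796 counts per library.

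The members and gene lists were chosen with earlier results of these data known. Genes were named if a role was listed, if they were among the 5 highest or 5 lowest called Log2FC of a comparison without overlap of libraries, if called in any pair of lines, or if among the 5 highest RPKM of a condition. Other genes named beside these were chosen after their values were seen. Alternatives were DESeq2 1.42.0, its size factors, no filter on low counts, a block on replicate number, fits of only the compared lines, and each library left out. In larvae and nonexercised flies the replicate number marked lanes of 1 flow cell, read from the sample labels and methods, and correlations of same-numbered deviations ran from -0.249 to 0.504 in larvae, from 0.045 to 0.397 in nonexercised females and from -0.085 to 0.068 in nonexercised males. TMM effective library sizes for the levels, and the scalings of the levels without Cyp4g1, were added after the data were seen.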

Additional observations from a re-analysis of the deposited data

Results flagged for a closer look

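The response to exercise differed between the sexes in 39 Cyp genes by the test of the interaction (edgeR, Benjamini-Hochberg over all genes), where 26.3% of all genes were called. The count was 24 without nonexercised females R820W replicate 2. The largest such differences without overlap between the lines of males and of females, as the response in males minus that in females, were a Log2FC of 1.69 for Cyp310a1, 1.38 for the pseudogene Cyp6a15Psi, 1.27 for Cyp6a8, 1.21 for Cyp4d21 and 1.15 for Cyp313a1. The values of Cyp310a1 and Cyp6a15Psi rest on levels near the floor in exercised females, with line means from 0.273 and 0.167 CPM upward. Cyp310a1, Cyp6a15Psi and Cyp6a8 were called lower in exercised females and not called in exercised males, while Cyp4d21 and Cyp313a1 were called lower in both. The exercised flies of each sex had a lane of their own, and the part of the lane was not tested.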

How the results depend on the processing

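The counts of Cyp genes called for stage, sex and exercise stayed within 1.5 times under DESeq2, its size factors, no filter, library sizes without rRNA and 7SL genes, fits of the compared conditions and the replicate block, which gave 32 for exercise in females and 13 in males, of which 3 were lower where 6 had been. With each of the 40 libraries left out they ran from 65 to 71 and 59 to 63 for larvae against females and males, 68 to 71 and 74 to 78 for sex in nonexercised and exercised flies, 36 to 46 and 13 to 16 for exercise in females and males, and 24 to 49 for the interaction. For sex in nonexercised flies the count of 67 with all 40 libraries lay below the range with a library left out. The interaction count was 30 with DESeq2 and with its size factors.

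The counts between lines moved more. DESeq2 gave 4 in larvae, 27 in nonexercised females and 9 in exercised females, no filter 18 and 7 in nonexercised and exercised females, and fits of only the compared lines 0 in larvae, 18 in nonexercised females and 10 in exercised females. The replicate block gave 26 in nonexercised females and 1 in exercised females, where the number marks no shared lane. Without A31P and R820W replicate 2 exercised males had 20. With each library left out the counts ran from 6 to 28 in exercised males, 9 to 22 in nonexercised males, 1 to 7 in exercised females, 1 to 51 in nonexercised females and 0 to 2 in larvae. The cause was not tested.

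The mean summed CPM of all 86 genes was, with size factors of DESeq2, 3175 in larvae, 6171 in nonexercised females, and 21590 and 20910 in exercised and nonexercised males. Without rRNA and 7SL genes it was 3700 in larvae, 7441 and 9073 in exercised and nonexercised females, and 27030 and 25110 in exercised and nonexercised males, and with TMM 3181 in larvae and 19810 in exercised males. With each library left out it ran from 24530 to 25080 in exercised males, 18810 to 19230 in nonexercised males, 5256 to 5577 in exercised females, 7387 to 7653 in nonexercised females and 2265 to 2368 in larvae. Without Cyp4g1 the medians of the other P450 genes in larvae and nonexercised females were 1763 and 1929 on total counts, but 2247 and 1711 with TMM, 2274 and 1539 with size factors of DESeq2, and 2754 and 2273 without rRNA and 7SL genes. In exercised and nonexercised males they were 4031 and 3289 on total counts, 3195 and 3236 with TMM, 3510 and 3662 with size factors of DESeq2, and 4391 and 4388 without rRNA and 7SL genes. No called Log2FC of a Cyp gene that was recomputed changed sign. With 2 libraries per line and condition, and levels near the floor for Cyp303a1, Cyp308a1, Cyp313a5 and Cyp316a1, small differences were not detectable. Levels of Cyp310a1 and Cyp6a15Psi were also near the floor in exercised females.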
